A study of Homo sapiens with 6 samples.

Results

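Cell junction genes were measured in xenograft tumours grown from PC-3, a human cell line derived from a bone metastasis of prostate cancer. They were 9 genes chosen by name, with earlier results of these data known, of 67026 genes in the table. The 5 tight junction genes were CLDN1, CLDN4, CLDN7, OCLN and TJP1, and the 4 desmosome genes were DSP, DSG2, DSC2 and DSC3. Of the 9, 8 passed the filter on low counts and were tested, and CLDN7 was listed at 0. RNA was sequenced in 3 tumours of the knockdown control (shGFP, a short hairpin RNA against green fluorescent protein) and in 3 tumours with knockdown of versican, a matrix proteoglycan (shVCAN). In both groups the PC-3 cells had received the hairpin by lentivirus, had been selected with 2 μg/mL puromycin and had been injected under the skin in a mix with 50% Matrigel. The hosts were male NSG mice (NOD.Cg-Prkdcscid Il2rgtm1Wjl/SzJ) of 4 to 5 weeks, which lack mature lymphocytes but keep their own vessels, stroma and myeloid cells, and tumours were followed for 4 weeks. The labels do not say whether a group is a pool of infected cells or a clone. Nor do they say whether each numbered tumour came from its own mouse. The p-values therefore set the group difference against the spread between these samples, and may not hold for versican knockdown in general.

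Tight junctions seal the space between neighbouring epithelial cells near their apical surface. Claudins and occludin are their membrane proteins, and ZO proteins such as ZO-1 tie them to actin. Desmosomes are spot-like junctions that resist mechanical pull. Their cadherins, the desmogleins and desmocollins, bind across the gap between cells, and inside the cell plakoglobin and plakophilins link them to desmoplakin and so to keratin filaments.

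Levels are CPM, counts scaled to the depth of each library after TMM normalisation, as mean ± SD with n = 3 per group. Fold changes are log2 of shVCAN over shGFP from the quasi-likelihood test of edgeR with their standard error (SE), and the words called, rose and fell are kept for genes whose p, adjusted by Benjamini and Hochberg over 16254 tested genes, was under 0.05. Libraries held 11253058 to 13327617 counts. VCAN itself fell from 10.6 ± 0.809 to 3.66 ± 1.19 CPM, and an exact two-sided permutation test of its 6 values gave p = 0.1, the smallest possible with 3 against 3. The share of counts in the 13 mitochondrial messenger RNAs was 13.3% to 16.2% in shGFP and 6.39% to 7.63% in shVCAN. Of the epithelial markers, KRT7, KRT8, KRT18, KRT19, EPCAM and CDH1 all passed the filter, and 5 of these 6 fell in shVCAN, as given with the other marker lists. The tumours differed widely between the groups, and 40.3% of all tested genes were called, 21.1% lower and 19.2% higher in shVCAN. In bulk tumours, fewer cells of a type and less RNA per cell cannot be told apart.

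Of the 9 junction genes, 4 fell in shVCAN (CLDN1, CLDN4, DSG2 and DSC3), 0 rose, 4 were not called (OCLN, TJP1, DSP and DSC2) and CLDN7 could not be tested. By the unadjusted p the same 4 lay under 0.05. The 4 falls among 8 tested genes stand beside the 21.1% of all tested genes called lower. Since the genes were chosen with earlier results known, that share cannot serve as a test of the set. Scaled by library size alone, DSP and DSC2 were called higher and the fall of DSC3 was lost, so 3 members fell and 2 rose. Under it the median of all tested genes moved from 0.0014 to 0.17 on the log2 scale. With an offset that corrects for the length and GC content of exons, DSP was called higher, while the 4 falls stayed called.

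The stretches of 250 bases before the start sites of 2 claudins and of 2 desmosome genes are shown because these genes include the abundant members that fell (CLDN1, CLDN4 and DSG2) and the abundant member that was not called (DSP). They are RefSeq sequences on GRCh38.p14, read 5′ to 3′ on the strand of the gene. The start sites are those of RefSeq and differ from the ends of the gene spans given below. All of the CLDN4 window and parts of the CLDN1, DSG2 and DSP windows lie inside those spans. Capitals mark CAGGTG or its reverse complement CACCTG, the E-box known to be bound by SNAI and ZEB repressors.
CLDN1 (chr3:190322447-190322696, minus strand): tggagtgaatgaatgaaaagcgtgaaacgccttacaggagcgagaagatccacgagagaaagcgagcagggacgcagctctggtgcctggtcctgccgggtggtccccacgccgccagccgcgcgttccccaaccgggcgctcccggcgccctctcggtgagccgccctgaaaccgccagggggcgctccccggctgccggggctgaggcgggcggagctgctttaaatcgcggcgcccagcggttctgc
CLDN4 (chr7:73830746-73830995, plus strand): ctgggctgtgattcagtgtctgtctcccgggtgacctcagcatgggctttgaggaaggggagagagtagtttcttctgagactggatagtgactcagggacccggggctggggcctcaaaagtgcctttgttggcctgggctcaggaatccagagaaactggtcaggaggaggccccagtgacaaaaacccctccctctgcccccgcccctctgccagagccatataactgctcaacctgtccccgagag
DSG2 (chr18:31497927-31498176, plus strand): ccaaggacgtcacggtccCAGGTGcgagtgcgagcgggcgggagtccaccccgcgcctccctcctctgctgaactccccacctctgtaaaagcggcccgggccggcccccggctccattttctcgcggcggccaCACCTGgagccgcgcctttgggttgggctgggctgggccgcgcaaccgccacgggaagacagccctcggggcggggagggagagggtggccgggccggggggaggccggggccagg
DSP (chr6:7541421-7541670, plus strand): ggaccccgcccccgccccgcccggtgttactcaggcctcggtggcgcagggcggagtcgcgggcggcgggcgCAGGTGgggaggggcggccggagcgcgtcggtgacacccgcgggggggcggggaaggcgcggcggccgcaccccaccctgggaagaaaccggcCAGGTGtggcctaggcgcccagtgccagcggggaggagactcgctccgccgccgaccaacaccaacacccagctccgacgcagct
The windows of CLDN1 and CLDN4 held no such E-box, and those of DSG2 and DSP held 2 each. In DSG2 and DSP the E-box nearer the RefSeq start site lies inside the annotated gene span. Over all 15 windows of the 9 genes, 7 windows of 6 genes held it (CLDN7, OCLN, TJP1, DSP, DSG2 and DSC2), against 17.5% of 35116 windows of the same length and 20.6% of 27305 genes. The shares of the 9 genes were the higher ones, but the background was not matched for windows per gene or GC content. Whether the E-box is enriched can therefore not be judged. Of the 4 genes that fell, DSG2 was the only one with the motif in a window. The sequence AACCGGTT, known for Grainyhead-like factors, was in no window of the 9 genes and in 0.143% of genes overall. A match is a string of letters and shows no binding.

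Claudin 4, a barrier-forming claudin of many simple epithelia, was the most abundant member per length. CLDN4 (ENSG00000189143.9, chromosome 7, 73799542 to 73832693, GRCh38) stood at 222.7, 240.6 and 224.6 CPM in shGFP tumours 1, 2 and 3 and at 134.3, 137.9 and 139.9 CPM in shVCAN tumours 1, 2 and 3. Every shVCAN tumour lay far below every shGFP tumour, and the shVCAN tumours differed little among themselves. The means were 229.3 ± 9.84 and 137.4 ± 2.85 CPM, a log2 fold change of −0.74 (SE 0.0542, edgeR adjusted p = 2.53e-12).

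Claudin 1, which is needed for the water barrier of the skin, had the largest fold change of the tested members. CLDN1 (ENSG00000163347.6, chromosome 3, 190305701 to 190322475) was at 22.2, 24.2 and 21.5 CPM in the shGFP tumours and at 12.5, 10.7 and 12.04 CPM in the shVCAN tumours. The groups did not overlap, as in 48.7% of all tested genes. The log2 fold change was −0.95 (SE 0.123, edgeR adjusted p = 2.43e-07), a level 1.93-fold lower in shVCAN, and became −1.08 with the offset for length and GC content.

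Claudin 7 has no usable measurement in this table. CLDN7 (ENSG00000181885.18, chromosome 17, 7259903 to 7263983) was listed at 0 in all 6 libraries. It lies in a run of 26 neighbouring protein-coding genes (7246829 to 7514616) of which 24 were listed at 0 and none had more than 2 counts over the 6 libraries together. That run includes POLR2A, the largest subunit of RNA polymerase II, and EIF5A, a translation factor, which every cell uses. The 0 of CLDN7 is therefore reported as a listed value, with no limit on its expression. No read was counted on its pseudogene CLDN7P1 either.

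Occludin and ZO-1 were listed at low levels with wide relative spread. OCLN (ENSG00000197822.11, chromosome 5, 69492292 to 69558104) had 44, 19 and 27 counts in the shGFP tumours and 22, 19 and 32 in the shVCAN tumours, and the groups overlapped. Its log2 fold change was −0.59 (SE 0.354, 95% interval −1.31 to 0.13, edgeR adjusted p = 0.192), so that a fall of more than 2-fold and no change both lie inside the interval. Of its 5 protein-coding neighbours within 150 kb, 2 were listed at 0, AK6 and TAF9, the latter a subunit of the general transcription machinery. Whether reads of OCLN were also lost in the counting was not tested. TJP1, the gene for ZO-1 (ENSG00000104067.16, chromosome 15, 29699367 to 29968865), had 66, 73 and 65 counts in shGFP and 46, 71 and 83 in shVCAN. ShVCAN tumour 1 was lowest on the CPM scale and shVCAN tumour 3 lay inside the shGFP range. The log2 fold change of TJP1 was −0.34 (SE 0.223, 95% interval −0.79 to 0.12, edgeR adjusted p = 0.244). Whether TJP1 lost reads in the counting was not tested. The ZO relative TJP3 was also low, at 3.14 ± 1.046 and 1.72 ± 0.617 CPM (called lower, adjusted p = 0.0476, but not with library size alone or with the offset).

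Desmoplakin, the plaque protein that anchors keratin filaments, was the most abundant desmosome member by CPM and was not called. DSP (ENSG00000096696.14, chromosome 6, 7541575 to 7586717) was at 138.1, 121.5 and 133.2 CPM in the shGFP tumours and at 143.9, 132.7 and 140.9 CPM in the shVCAN tumours. The lowest shVCAN tumour lay inside the shGFP range. The log2 fold change was 0.087 (SE 0.0604, 95% interval −0.036 to 0.21, edgeR adjusted p = 0.265). DSP has 10093 exonic bases. It became called, at 0.26, with the offset for length and GC content (adjusted p = 0.000135) and, at 0.25, with library size alone (adjusted p = 0.00114), so a small rise is seen under those settings only.

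Desmoglein 2, the desmosomal cadherin of simple epithelia, fell. DSG2 (ENSG00000046604.13, chromosome 18, 31498043 to 31549008) was at 97.1, 94.9 and 94.8 CPM in the shGFP tumours and at 72.9, 60.3 and 73.4 CPM in the shVCAN tumours. The shGFP tumours were almost equal, all shVCAN tumours were lower, and shVCAN tumour 2 was lowest. The log2 fold change was −0.47 (SE 0.0716, edgeR adjusted p = 3.2e-06). The antisense gene DSG2-AS1 shares 2.76% of the exonic bases of DSG2 and had at most 2 counts in a library.

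The desmocollins did not move alike. DSC3, known from basal and stratified epithelia (ENSG00000134762.17, chromosome 18, 30990008 to 31042815), was at 15.2, 11.9 and 15.9 CPM in the shGFP tumours and at 9.94, 9.74 and 11.2 CPM in the shVCAN tumours. The groups came close, with shGFP tumour 2 just above shVCAN tumour 3. The log2 fold change of DSC3 was −0.48 (SE 0.146, edgeR adjusted p = 0.00936), but leaving out shGFP tumour 3 ended the call (adjusted p = 0.0574), as did scaling with library size alone (adjusted p = 0.0817). DSC2, the desmocollin of simple epithelia (ENSG00000134755.17, chromosome 18, 31058840 to 31102522), was at 15.9, 19.2 and 17.4 CPM in shGFP and at 21.6, 16.3 and 21.5 CPM in shVCAN. Its shVCAN tumour 2 lay within the shGFP range. The log2 fold change of DSC2 was 0.18 (SE 0.127, 95% interval −0.078 to 0.44, edgeR adjusted p = 0.272), and it was called higher, at 0.35, with library size alone (adjusted p = 0.0266).

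**Figure D1:**
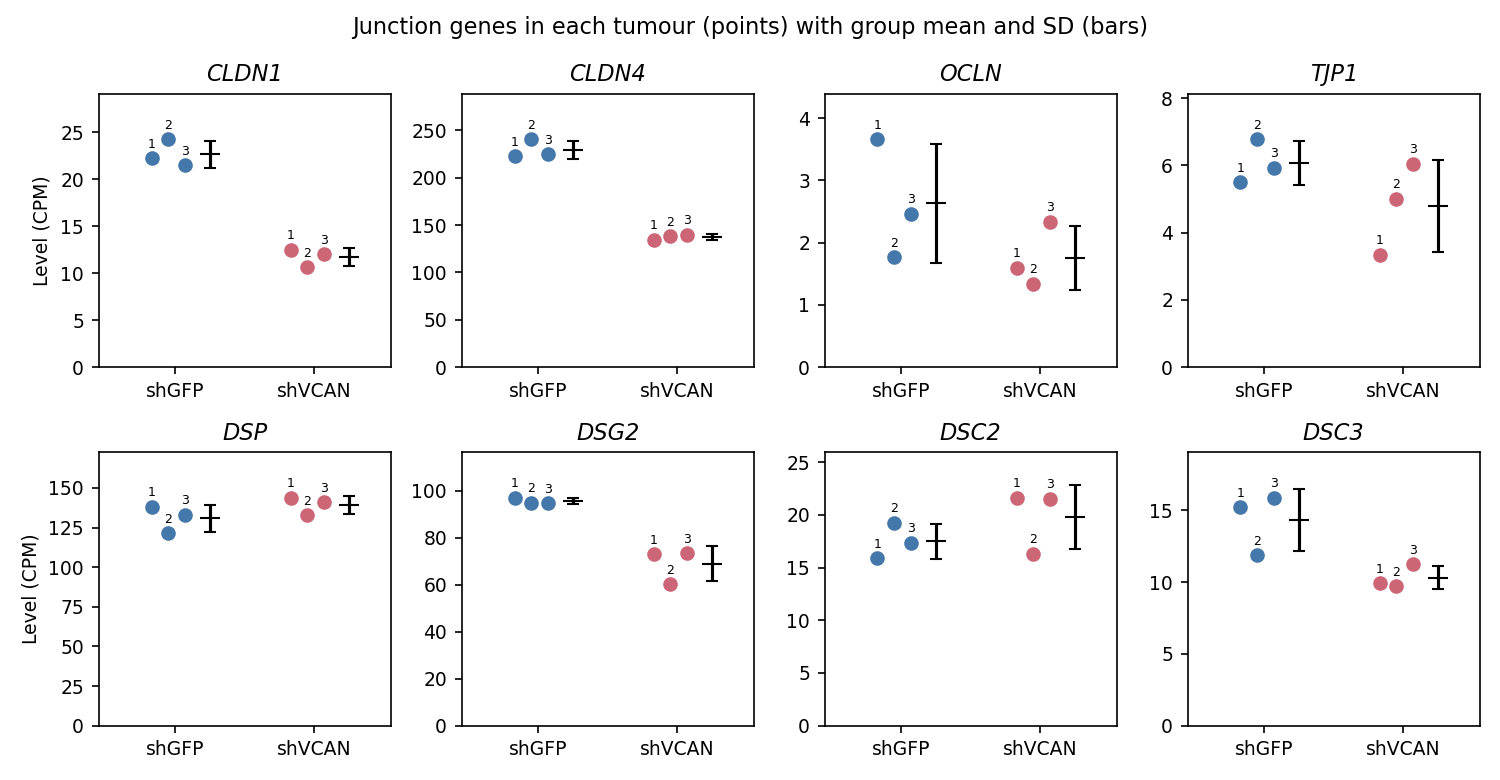
Level in CPM (vertical axes, each from 0) of the 8 tested junction genes in the 3 shGFP and 3 shVCAN tumours. Points are tumours with their numbers and black bars the group mean with SD. The groups are apart in CLDN1, CLDN4, DSG2 and DSC3 and overlap in OCLN, TJP1, DSP and DSC2. Over all tested genes they are apart in 48.7%, a similar share.

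Per kilobase of exonic length, the members spanned more than 2 orders of magnitude in shGFP. CLDN4 stood highest at 48.8 ± 2.09 CPM per kb in shGFP and 29.2 ± 0.606 in shVCAN. DSG2 followed at 15.4 ± 0.211 and 11.1 ± 1.20 CPM per kb, and DSP at 12.97 ± 0.845 and 13.8 ± 0.572 CPM per kb. In shGFP all DSG2 values lay above all DSP values, and in shVCAN all lay below. CLDN1 had 6.18 ± 0.393 CPM per kb in shGFP and 3.20 ± 0.261 in shVCAN. DSC3, at 2.03 ± 0.304 CPM per kb, lay above DSC2, at 1.40 ± 0.134, in every shGFP tumour, whereas in shVCAN their values overlapped (1.46 ± 0.115 and 1.59 ± 0.244 CPM per kb). TJP1 and OCLN closed the order at 0.539 ± 0.058 and 0.389 ± 0.142 CPM per kb in shGFP, and their values overlapped in both groups. The length is that of all annotated exons of a gene, and transcripts in use may be shorter.

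**Figure D2:**
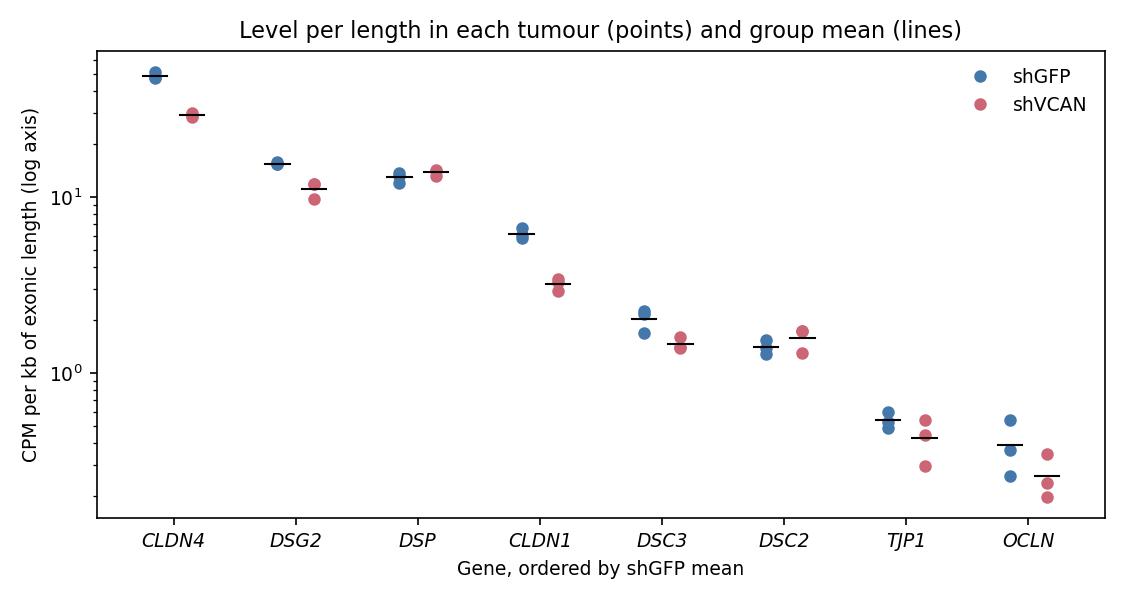
Level per kb of exonic length (log axis) of the 8 tested junction genes, ordered by the shGFP mean. Points are tumours and lines group means. CLDN4 is highest in both groups, and DSG2 and DSP change places between them.

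Ratios of counts within a library do not depend on the scaling between libraries, and those given here, 3 of 5 computed, were chosen after the values were seen and carry no test. DSG2 counts over DSP counts were 0.703, 0.781 and 0.712 in the shGFP tumours and 0.507, 0.455 and 0.521 in the shVCAN tumours, so that every shVCAN tumour held less DSG2 for its DSP. DSC3 counts over DSC2 counts were 0.958, 0.618 and 0.916 in shGFP and 0.460, 0.597 and 0.522 in shVCAN. The DSC3 ratio of shGFP tumour 2 was close to that of shVCAN tumour 2. CLDN4 counts over counts of CLDN3, another barrier claudin that lies 29.3 kb from CLDN4, were 6.07, 5.52 and 5.09 in shGFP and 2.56, 2.74 and 2.75 in shVCAN.

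The desmosomal cadherin genes lie side by side on chromosome 18, and only the outer ones had counts to test. In chromosomal order they are DSC3, DSC2, DSC1, DSG1, DSG4, DSG3 and DSG2. DSG1, DSG3 and DSG4 had 0 counts in every library, which allows up to 3 counts or 0.212 to 0.279 CPM a library, for counting error only. DSC1 had 3 counts in shVCAN tumour 2 and 0 elsewhere. DSG1, DSG3 and DSC1 are cadherins of stratified epithelia such as the epidermis.

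**Figure D3:**
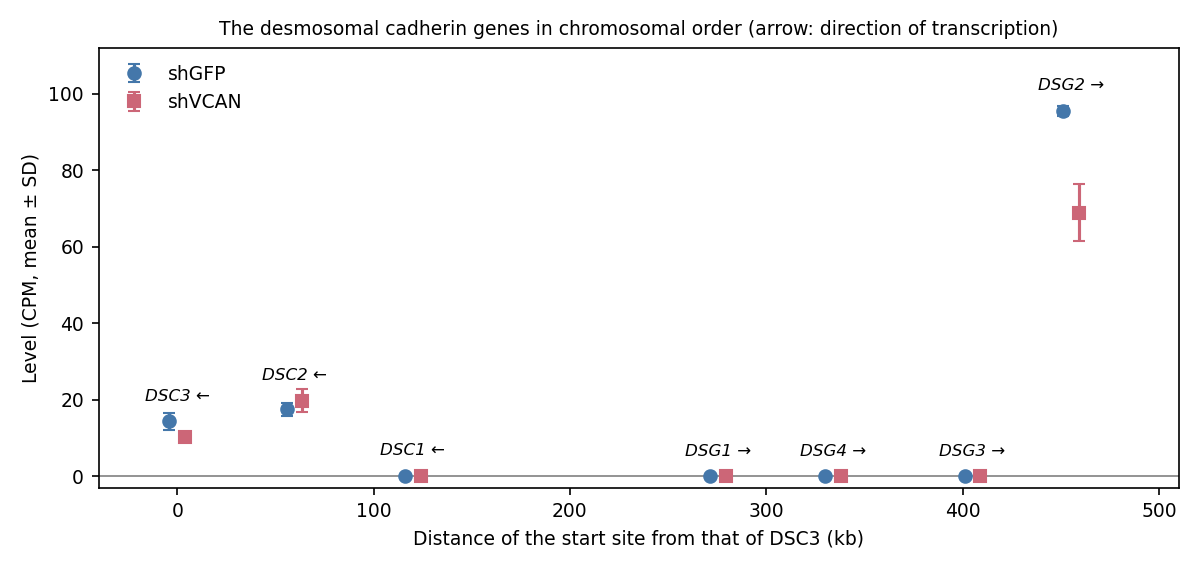
Mean level with SD in CPM (vertical axis) of the 7 desmosomal cadherin genes against the distance of each start site from that of DSC3 in kb (horizontal axis), for shGFP (circles) and shVCAN (squares). DSC3 and DSC2 at the left end and DSG2 at the right end have counts, and the 4 genes between them are at or near 0.

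Other desmosome genes moved in both directions. Of 8 tested plaque and associated genes of 9 listed, 3 fell, 1 rose and 4 were not called, with a median log2 fold change of −0.22 beside 0.0014 over all tested genes. The 4 called of 8 stand beside 40.3% called over all genes, and with library size alone or with the offset 2 fell and 2 rose. Plakoglobin (JUP), which links desmosomal cadherins to desmoplakin, fell from 42.5 ± 1.64 to 23.2 ± 1.18 CPM (log2 fold change −0.88). Periplakin (PPL), a relative of desmoplakin, fell from 36.2 ± 0.476 to 25.7 ± 2.81 CPM. PERP, a membrane protein needed for desmosomes of stratified epithelia, rose from 186.9 ± 8.42 to 229.8 ± 12.8 CPM. PKP4 fell from 45.4 ± 0.772 to 38.0 ± 2.58 CPM, a call lost with the offset for length and GC content (adjusted p = 0.307), with library size alone (adjusted p = 0.421), and without shGFP tumour 1 (adjusted p = 0.0533) or shVCAN tumour 3 (adjusted p = 0.0826). Plakophilin 1 (PKP1), the most abundant plakophilin here by CPM, was at 295.9 ± 7.24 and 320.8 ± 25.1 CPM and was not called (adjusted p = 0.0799).

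Other claudins moved in both directions. Of 19 listed, 6 passed the filter, and of these 4 rose, 1 fell and 1 was not called, with a median of 0.27. With the offset 2 rose and 1 fell. The share over all tested genes was 19.2% higher and 21.1% lower. CLDN10, an ion-channel-forming claudin, rose from 2.25 ± 0.337 to 6.86 ± 0.538 CPM and CLDN11, known from myelin and the testis, from 3.05 ± 0.755 to 6.14 ± 0.565 CPM. CLDN3 rose from 41.5 ± 4.12 to 51.2 ± 1.12 CPM, a call lost with the offset for length and GC content (adjusted p = 0.0938). CLDN12 was at 34.5 ± 1.61 and 40.7 ± 6.23 CPM with overlapping groups. Its adjusted p of 0.0499 in edgeR was above 0.05 with the replicate block (adjusted p = 0.0542) and in 7 of 12 other settings. CLDN15 fell from 20.9 ± 1.77 to 14.6 ± 2.54 CPM. CLDN14 was at 1.54 ± 0.693 and 0.773 ± 0.432 CPM and was not called.

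Of 9 tested genes of other tight junction membrane proteins, of 12 listed, 3 fell, 1 rose and 5 were not called (median −0.49). This count and that of the plaque and polarity genes stand beside 40.3% of all tested genes called, 21.1% lower and 19.2% higher. LSR, the angulin that marks corners where 3 cells meet, fell from 25.9 ± 3.61 to 11.1 ± 0.814 CPM, and F11R, the junctional adhesion molecule A, from 71.2 ± 3.65 to 50.7 ± 2.40 CPM. JAM3 rose from 43.4 ± 2.33 to 55.0 ± 1.77 CPM. MARVELD3, a relative of occludin, was at 1.39 ± 0.289 and 0.484 ± 0.306 CPM (adjusted p = 0.0214), a call that ended when shGFP tumour 1 (adjusted p = 0.0634), shGFP tumour 2 (adjusted p = 0.094) or shVCAN tumour 2 (adjusted p = 0.135) was left out, and in the Wald test of DESeq2 (adjusted p = 0.0779). All 23 plaque and polarity genes were tested, of which 7 fell, 1 rose and 15 were not called (median −0.19). Paracingulin (CGNL1), a cytoplasmic partner of ZO-1, fell from 23.6 ± 0.728 to 5.63 ± 0.923 CPM, a log2 fold change of −2.07 (SE 0.144, edgeR adjusted p = 7.41e-13). Its close relative cingulin (CGN) was at 9.90 ± 0.682 and 8.28 ± 1.88 CPM and was not called. The scaffold MAGI1 fell from 31.9 ± 1.17 to 20.7 ± 0.821 CPM. The falls of ARHGEF2, the junction-bound exchange factor GEF-H1, and of AMOTL2 were small (−0.19 and −0.36) and were not called with library size alone (adjusted p = 0.733 and 0.131) or with the offset (adjusted p = 0.753 and 0.109). With library size alone 4 plaque and polarity genes were called in place of 8, with the offset 3, and without shVCAN tumour 1, 4.

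Junctions of other kinds gave mixed counts, beside 21.1% of all tested genes called lower and 19.2% called higher. Of 15 tested adherens junction genes, 7 fell, 3 rose and 5 were not called (median −0.032), whereas with library size alone 6 fell and 7 rose. E-cadherin (CDH1) led the falls with a log2 fold change of −2.20 (SE 0.181), NECTIN2 fell from 93.7 ± 0.307 to 60.6 ± 2.80 CPM and NECTIN1 from 33.4 ± 2.68 to 21.3 ± 2.87 CPM, while NECTIN3 rose from 34.3 ± 1.84 to 50.4 ± 7.84 CPM. Of 9 hemidesmosome genes, whose proteins anchor epithelial cells to the basement membrane, 5 fell, 2 rose and 2 were not called (median −0.14), whereas 3 fell and 3 rose with the offset and 3 fell and 2 rose with library size alone. The laminin chain genes LAMA3 and LAMB3 had log2 fold changes of −0.82 and −0.55, and ITGA6, a subunit of their receptor, rose by 1.04. Of 11 connexins, the proteins of gap junctions, 5 were tested and 0 were called in edgeR, with 2 (GJA3 and GJC1) under an unadjusted p of 0.05, and 0 were called in the Wald test of DESeq2. With library size alone 3 connexins were called, GJA1, GJA3 and GJB2. In each of 3 more settings 1 was called higher: with the offset, without shGFP tumour 1 and without shVCAN tumour 3. With no filter 1 was called lower.

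Factors known to act on junction genes were mostly lower or not called. Of 12 tested of 20 listed, 6 fell, none rose and 6 were not called (median −0.59). Among all tested genes 21.1% were called lower and 19.2% higher. KLF4, an epithelial transcription factor, fell from 14.8 ± 1.19 to 6.76 ± 0.678 CPM. The epithelial splicing regulators ESRP1 and ESRP2 fell from 12.5 ± 0.814 to 6.06 ± 0.700 CPM and from 10.9 ± 1.66 to 6.56 ± 0.702 CPM. ZEB2, a repressor of epithelial genes, fell from 69.7 ± 9.90 to 41.3 ± 4.97 CPM. GRHL1 and ELF3 were low (3.10 ± 0.398 and 2.27 ± 0.411 CPM in shGFP) and called lower. The call of GRHL1 was lost without shGFP tumour 2 (adjusted p = 0.0769) or shVCAN tumour 3 (adjusted p = 0.0877) and that of ELF3 without shVCAN tumour 1 (adjusted p = 0.0744). ZEB1 was at 68.2 ± 7.58 and 72.5 ± 2.19 CPM and SNAI2 at 20.4 ± 1.41 and 21.2 ± 1.46 CPM, and neither was called, although ZEB1 was called higher with library size alone (adjusted p = 0.00608). TWIST1 was at 34.1 ± 1.52 and 31.0 ± 1.77 CPM and SNAI1 at 4.01 ± 1.15 and 4.28 ± 1.22 CPM, not called. OVOL2, low at 0.957 ± 0.300 and 0.693 ± 0.349 CPM, was not called either (edgeR adjusted p = 0.525).

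**Figure D4:**
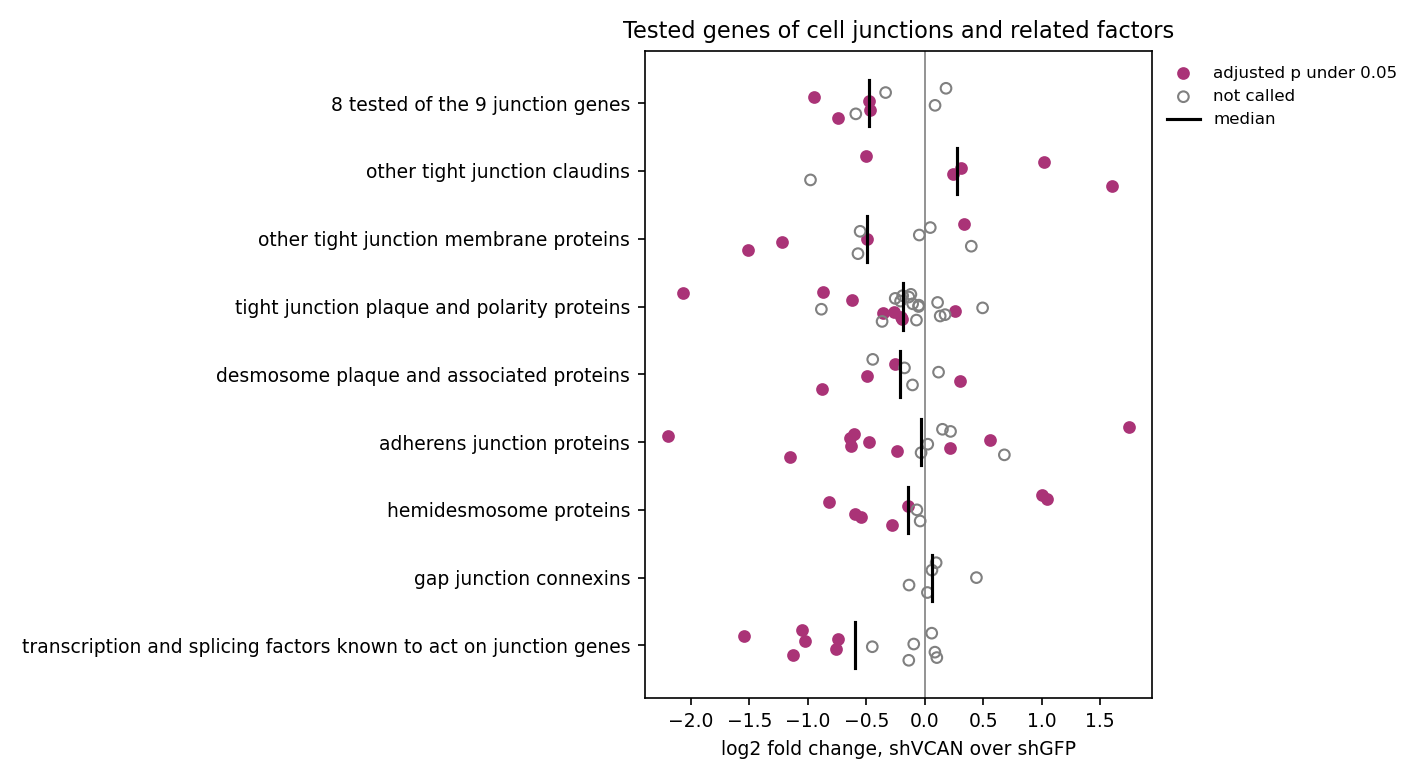
Log2 fold change of shVCAN over shGFP (horizontal axis) for every tested gene of the junction set and of 8 related lists. Filled points are called genes, open points are not called, and black lines are list medians. The other claudins have a median above 0 (0.27) and the list of transcription and splicing factors a median of −0.59.

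Genes with the most similar profile to each member were sought among protein-coding genes with a mean of at least 5 CPM (10861 for most members). Likeness was the smallest Euclidean distance between log2 CPM values centred over the 6 tumours, so it reads the group difference as well as the spread. ANPEP and CCND1 were nearest to CLDN4 (0.0691 and 0.071) and CBX6 and PDZD2 to CLDN1 (0.131 and 0.133). CLIC4 and ASXL2 were nearest to DSG2 (0.0604 and 0.076), TTC12 and MED23 to DSC3 (0.12 and 0.13), CTPS2 and CARD8 to DSP (0.0536 and 0.0577) and IFT74 and RAB33B to DSC2 (0.106 and 0.114). The nearest to TJP1, MEX3B and RIN3, lay at 0.238 and 0.24, and those to OCLN, ZNF700 and EPB41L4A, at 0.456 and 0.499, farther than for the abundant members. None of these 16 genes is in the junction lists. Those lists hold few of the candidates, so this shows nothing about likeness among junction genes.

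Markers of several cell types moved with the group as well, and their part in the junction results was not tested. Of 6 prostate luminal markers, 3 were tested and 0 were called (median 0.041), though 1 was called lower without shVCAN tumour 3. Their sums overlapped, at 163.6 to 174.7 CPM in shGFP and 151.1 to 168.2 CPM in shVCAN. Of the 6 general epithelial markers, 5 fell, 0 rose and 1, KRT19, was not called (median −0.41), and their summed level was 1568.3 to 1774.0 CPM in shGFP and 1280.9 to 1325.9 CPM in shVCAN. KRT7 fell by 0.97, KRT18 by 0.54, EPCAM by 0.29 and KRT8 by 0.19 on the log2 scale beside the fall of CDH1. With library size alone 3 of the 6 were called lower. The counts of all marker lists stand beside 21.1% of all tested genes called lower and 19.2% called higher. Of 12 keratinocyte markers, which could come from host skin, 10 did not pass the filter. The 2 that were tested, KRT10 and SBSN, both rose (median log2 fold change 1.75). KRT5 and KRT14, defining markers of basal keratinocytes, had at most 5 and 6 counts in a library, and KRT1 and DSG1 had 0 in all. The summed level of that list was 53.2 to 57.8 CPM in shGFP and 72.0 to 77.2 CPM in shVCAN, nearly all of it from KRT10, which rose from 53.8 to 72.9 CPM. Of 10 endothelial markers, 7 were tested, 5 fell and 1 rose, and the sum was 211.2 to 221.8 CPM in shGFP and 165.0 to 168.7 CPM in shVCAN. CLDN5, the endothelial claudin, had at most 6 counts in a library. Of 10 fibroblast and pericyte markers, 8 were tested, 5 fell and 1 rose, with sums of 837.8 to 944.2 CPM in shGFP and 396.9 to 492.3 CPM in shVCAN. Of 8 skeletal muscle markers, 6 were tested and 5 fell, with overlapping sums of 207.5 to 366.3 and 165.2 to 244.4 CPM. That count was 2 without shGFP tumour 3, 3 without shVCAN tumour 1 and 1 in the Wald test of DESeq2. Leukocyte markers were near 0, with sums of 2.75 to 5.39 and 1.16 to 1.76 CPM over 10 genes. Of 6 adipocyte markers, 2 were tested and 1, FABP4, rose.

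**Figure D5:**
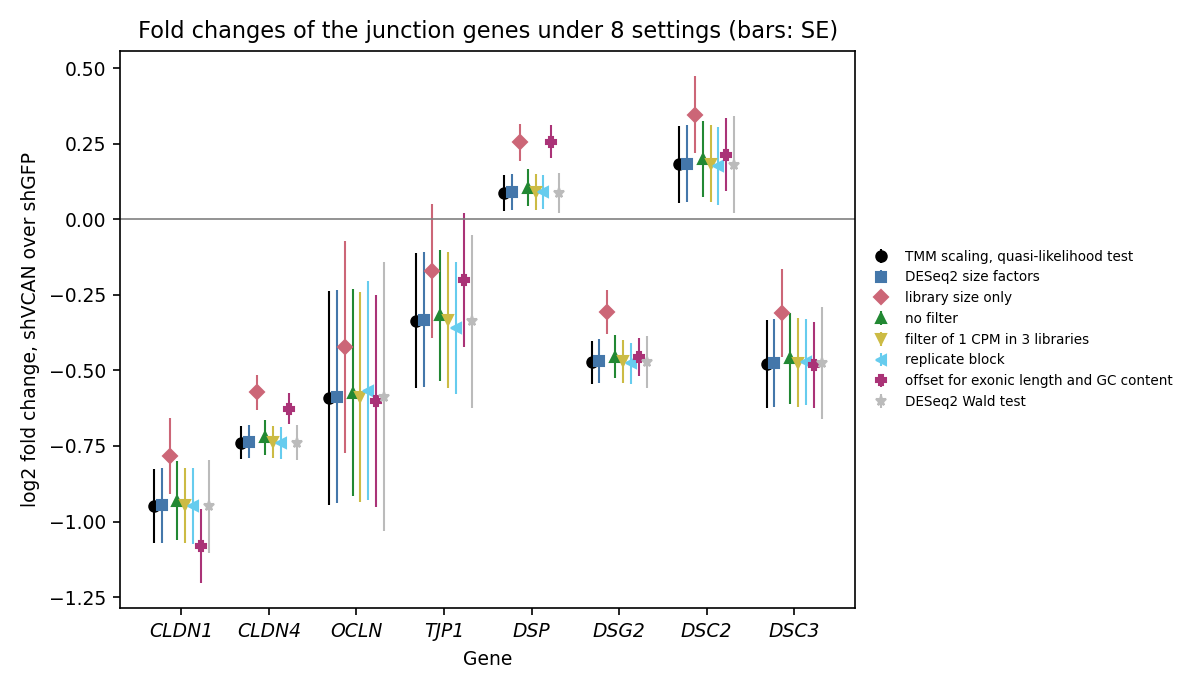
Log2 fold change of shVCAN over shGFP (vertical axis) with SE for the 8 tested junction genes under 8 settings of scaling, filter and test (symbols). CLDN1, CLDN4, DSG2 and DSC3 lie below 0 in every setting drawn, and DSP and DSC2 lie above 0, farthest with library size alone and, for DSP, with the offset for length and GC content.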

How the data were processed

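The table deposited by the authors holds raw counts, whole numbers for each versioned Ensembl gene identifier. The submitters' processing notes list Trim Galore, STAR, DESeq2 and hg38 but give neither version nor role. Not given in the sources used here are the counter, the annotation release, the strand setting and whether mouse reads were removed. Reads were paired, 150 bases long, per the labels' protocols. If mouse reads were kept, those that align to human genes count as human.

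Of 67071 rows, 45 second copies of pseudoautosomal genes (0 counts) were left out. Symbols came from a symbol table (60370 identifiers) and GENCODE 29 (289), and 6367 had none, holding 0.166% of a library's counts or less. Of the identifiers, 8530 are not in the primary assembly annotation of GENCODE 29 (GRCh38), which gave coordinates, lengths and GC content. Any that are second copies of a junction gene were not added to it. All 9 genes had RefSeq promoter windows. Each library was counted as 1 replicate, as labelled. Libraries within a group differed by more than counting noise (chi-square per gene 3.45 to 6.61). That cannot show independent tumours, since repeat libraries of the same tumour could differ so too. The common biological coefficient of variation of the fit was 6.63%.

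Groups were compared with edgeR 4.0.16 in R 4.3.3 (TMM, filterByExpr, quasi-likelihood test, group as the only term). The code was run on simulated data with few changed genes, nearly balanced in direction, and the same dispersion for all genes. That run could not test the scaling for groups that differ as widely as these. SE is the size of the log2 fold change divided by the square root of F. Alternatives were DESeq2 1.42.0 (size factors and Wald test), library size only, other filters, the replicate block, each tumour left out, and an offset correcting for length and GC content of exons. The members and lists were chosen with earlier results of these data known. The named genes are the members, VCAN, all tested claudins and factors, and up to 4 called genes with the smallest adjusted p in each related list, and others (CGN, TJP3, PKP1, the connexins, CTNNA1, DSP-AS1, B4GALT6, markers) were chosen after their values were seen. Some genes of the lists are not reported here. Counting intervals cover counting error only.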

Additional observations from a re-analysis of the deposited data

How the results depend on the processing

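The falls of CLDN1, CLDN4 and DSG2 kept their direction and their call in all 13 alternatives. With each tumour left out in turn, the log2 fold change ran from −0.997 to −0.88 for CLDN1, from −0.75 to −0.69 for CLDN4, from −0.52 to −0.38 for DSG2 and from −0.58 to −0.40 for DSC3, the last losing its call without shGFP tumour 3. Between 3 and 4 members were then called. With library size alone DSC3 was at −0.31 and not called, DSP at 0.25 and DSC2 at 0.35 were called higher, 2 members were called higher, 22 genes of the related lists were called higher in place of 12, and 5228 of all genes were called higher and 1890 lower. Of all calls 73.4% were then higher, beside 47.7% with TMM. With the offset for exonic length and GC content DSP was at 0.26 and 1 member was called higher. The cause was not tested. Asking for a change of 1 or more on the log2 scale in either direction left 885 genes, 450 higher and 435 lower, fewer by construction. No member was among them, since the largest change with TMM and no offset was −0.95, for CLDN1.

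Deviations of tumours with equal replicate numbers were hardly correlated (0.0176, 0.0157 and −0.0271). Such a check can show only a strong pairing, and a weaker pairing was not tested. With the replicate block CLDN1 was at −0.95, CLDN4 at −0.74, DSG2 at −0.48 and DSC3 at −0.47, 6511 genes were called in place of 6545, and the call of CLDN12 was lost.

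Some genes with values near 0 changed sign. ARHGEF2 was at 0.022, SNAI1 at −0.018 and SNAI2 at −0.095 with the offset, and TWIST1 was at 0.029 and KLF5 at 0.072 with library size alone. With each tumour left out, SNAI1 ran from −0.15 to 0.34, being −0.083 without shGFP tumour 1, and KLF5 from −0.18 to 0.022. OCLN and TJP1 had at most 44 and 83 counts in a library. For OCLN the spread between tumours (CV 36.5% in shGFP and 29.4% in shVCAN) was above that of counting alone (18.3% and 20.3%), and for TJP1 it was so in shVCAN (28.5% against 12.2%).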

Other observations

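The genes in this section were chosen after their values were seen. The antisense gene DSP-AS1 lies head to head with DSP on chromosome 6 (7540451 to 7541338, minus strand), 236 bases from the annotated start of DSP. It had 44, 23 and 32 counts in the shGFP tumours and 195, 156 and 158 in the shVCAN tumours. The level rose from 2.91 ± 0.764 to 12.2 ± 1.69 CPM (n = 3 per group), 2.06 on the log2 scale in edgeR (SE 0.204), which kept its sign and its call in all 13 alternatives. DSP itself was not called with TMM scaling. DSP shares no exonic base with another annotated gene, but whether counting used the strand is not known from the sources used here.

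PC-3 cells are known to lack alpha-E-catenin through a deletion in CTNNA1. CTNNA1 still had 8.86 ± 2.20 CPM in shGFP and 3.98 ± 1.13 CPM in shVCAN (log2 fold change −1.15, SE 0.224). The origin of these counts was not tested. B4GALT6, a sphingolipid enzyme gene 2 protein-coding genes beyond DSG2 on chromosome 18, rose (log2 fold change 0.78, SE 0.149) while DSG2 fell.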
